A study of Mus musculus with 26 samples.

Results

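The E proteins are basic helix-loop-helix transcription factors encoded by Tcf3, Tcf4 and Tcf12, and the Id proteins encoded by Id1, Id2 and Id3 are their inhibitors. The 6 genes were represented by 19 of the 45101 probe sets of an Affymetrix mouse array, namely all probe sets that the platform annotation assigned to exactly 1 gene symbol among these 6. There were 3 probe sets for Tcf3, 6 for Tcf4, 5 for Tcf12, 1 for Id1, 3 for Id2 and 1 for Id3, so 14 reported E protein genes and 5 reported Id genes. RNA had been hybridised on 26 arrays, 1 for each sample, to compare 8 populations of blood cell progenitors and early thymocytes from C57/Bl6 mice labelled as male and 2 months old. No genetic change or treatment was named for any population. The bone marrow populations were MPPFL- (5 arrays) and MPPFL+, CMP, GMP and CLP (3 arrays each), where MPP, CMP, GMP and CLP are the usual abbreviations for multipotent, common myeloid, granulocyte-macrophage and common lymphoid progenitors. The thymus gave the double-negative thymocyte stages DN1, DN2 and DN3 (3 arrays each). A second label of the same samples spelled MPP as MMP and named the CLP samples ALP. The labels did not say whether the samples of a population came from separate animals or pools, so the p-values below measure the spread between these samples, which may be technical.

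E proteins bind as dimers to the E box, the sequence CANNTG, and switch on genes of the lymphoid lineages, among them those for antigen receptor assembly. Id proteins have the dimerisation domain but lack the basic region that contacts DNA, so an E protein bound to an Id protein cannot bind its site. In the thymus, E proteins hold developing thymocytes at the checkpoint for the pre-T cell receptor, signals through that receptor raise Id3 by way of Egr factors, and Id2 is needed for natural killer and other innate lymphoid cells.

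The values were log2 levels as deposited. The lowest value in the table, 2.17, recurred on 30.2% to 37.1% of the probe sets of each array and is called the floor here, and the highest value was 17.1. A probe set at the floor has no measured level, and a change against it is given as a lower bound. Levels are compared only within a probe set. In these bulk samples, fewer cells of a type and less RNA per cell cannot be told apart.

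The labels were checked with marker genes. All 26 arrays correlated best with another array of their own population. The mean of 4 GMP markers (Mpo, Elane, Prtn3 and Ctsg) was highest in GMP at 14.99, that of the CLP markers was highest in CLP at 11.73, and that of the thymocyte markers was 5.05 in DN1, 7.31 in DN2 and 11.61 in DN3 against 2.28 to 3.40 in the marrow populations. The Xist level went against the male label, at more than 3 log2 units above the floor, on 4 arrays. In DN1 these were replicate 1 (12.21) and replicate 3 (13.59), and in DN2 they were replicate 2 (12.99) and replicate 3 (6.30). Below that cut, Xist read 4.45, 4.39, 2.19, 3.12 and 3.74 in MPPFL-, and at most 2.21 on the other marrow arrays. The Y-linked gene Eif2s3y was within 1 log2 unit of the floor on DN1 replicate 3 (2.62) and DN2 replicate 2 (2.17), whereas it read 12.76 on DN1 replicate 1 and 13.34 on DN2 replicate 3, close to the other thymus arrays, so these 2 arrays carried both signals. Part of the results that involve DN1 or DN2 are therefore also given without these 4 arrays. That leaves DN1 replicate 2 and DN2 replicate 1 alone, whose spread is then assumed to be that of the other populations, so such values show a size and do not test the spread within DN1 or DN2. Poly-A spike-in controls grouped the arrays into 6 clusters, with MPPFL-, MPPFL+ and CLP in 1 cluster and DN1 and DN2 in another, whereas CMP, GMP and DN3 lay in other clusters. Their mean was 2.46 to 2.56 on the DN1 and DN2 arrays and 9.87 to 11.68 on the DN3 arrays. In DN1 against CLP, DN3 against DN2 and every comparison with CMP or GMP, the 2 populations shared no cluster. Population and spike-in cluster cannot be told apart in these comparisons. The mean of 13 immediate early and stress genes was 11.72 in DN1 (10.28 to 12.54), 9.85 in DN2 (8.71 to 11.74) and 7.22 in DN3 (6.20 to 9.05), against 8.55 in CLP (8.27 to 8.80). The highest DN3 value, 9.05, belonged to replicate 3, which also stood apart from the other DN3 arrays in its spike-in controls.

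Of the 6 genes, Tcf3, Tcf12, Id2 and Id3 had entries among the RefSeq promoters (GRCm38.p6), and the 250 bases before each listed start were searched for the E box because E proteins act through it. CANNTG was read on both strands, which it matches alike, and capitals mark it below. For Tcf12, only the bases upstream of the annotated gene are shown, and for Tcf3, whose window lies within the annotated gene, none are. The windows shown are those of Tcf12 and Id3, whose RNA rose together in DN3, and of Id2, the Id gene with a signal in every population. Each reads from 5′ to 3′ on the strand of its gene.
Tcf12 first promoter, chr9:72111894-72112069, minus strand: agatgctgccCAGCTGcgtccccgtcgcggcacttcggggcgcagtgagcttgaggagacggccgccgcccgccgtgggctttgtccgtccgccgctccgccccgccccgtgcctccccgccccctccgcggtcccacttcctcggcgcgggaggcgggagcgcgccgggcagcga
Id2, chr12:25096093-25096342, minus strand: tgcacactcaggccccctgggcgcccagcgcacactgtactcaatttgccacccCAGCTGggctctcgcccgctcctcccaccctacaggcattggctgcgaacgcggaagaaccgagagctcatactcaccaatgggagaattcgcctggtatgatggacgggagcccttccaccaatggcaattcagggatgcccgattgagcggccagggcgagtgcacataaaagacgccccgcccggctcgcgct
Id3, chr4:136143572-136143821, plus strand: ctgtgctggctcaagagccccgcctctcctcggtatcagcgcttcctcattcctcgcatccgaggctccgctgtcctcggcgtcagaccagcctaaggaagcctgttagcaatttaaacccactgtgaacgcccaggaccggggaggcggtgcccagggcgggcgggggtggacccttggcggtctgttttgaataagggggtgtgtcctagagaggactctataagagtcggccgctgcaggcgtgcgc

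The Tcf12 and Id2 windows each held 1 E box, and in both it was CAGCTG. The first base of the Tcf12 E box lay at position -240 and that of Id2 at -196 from the start. The Tcf3 window held 1 CANNTG at -54 that was neither CAGCTG nor CAGGTG. The second of the 3 Tcf12 promoters held 1 CANNTG at -149, and the third held none. The Id3 window held none. Of all 32851 promoter windows of this length, 66.2% held CANNTG, 13% held CAGCTG and 17.2% held CAGGTG or its complement, so an E box is common in such windows. GCGNGGGCG, a binding motif of Egr factors, was in 4.7% of all windows and in none of those of the 4 genes.

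On the leading probe set of each of the 6 genes (the one with the highest mean), Tcf3, Tcf12 and Id3 were at their highest in DN3 thymocytes, Tcf4 was highest in CLP and MPPFL+ and lowest in GMP, Id2 was highest in DN1, CLP and DN3, and Id1 was at or near the floor in every population. The level differed among the 8 populations for 17 of the 19 probe sets (limma F test, adjusted p under 0.05), against 50.1% of all 45037 tested probe sets. The exceptions were Id1 1425895_a_at and Id2 1422537_a_at, which both lay near the floor on most arrays. The genes lie on 6 chromosomes in GRCm38.p6, Tcf3 at chr10:80409541-80433976, Tcf4 at chr18:69343429-69687967, Tcf12 at chr9:71844252-72111893, Id1 at chr2:152736251-152737410, Id2 at chr12:25093799-25096092 and Id3 at chr4:136143822-136145392.

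**Figure D1:**
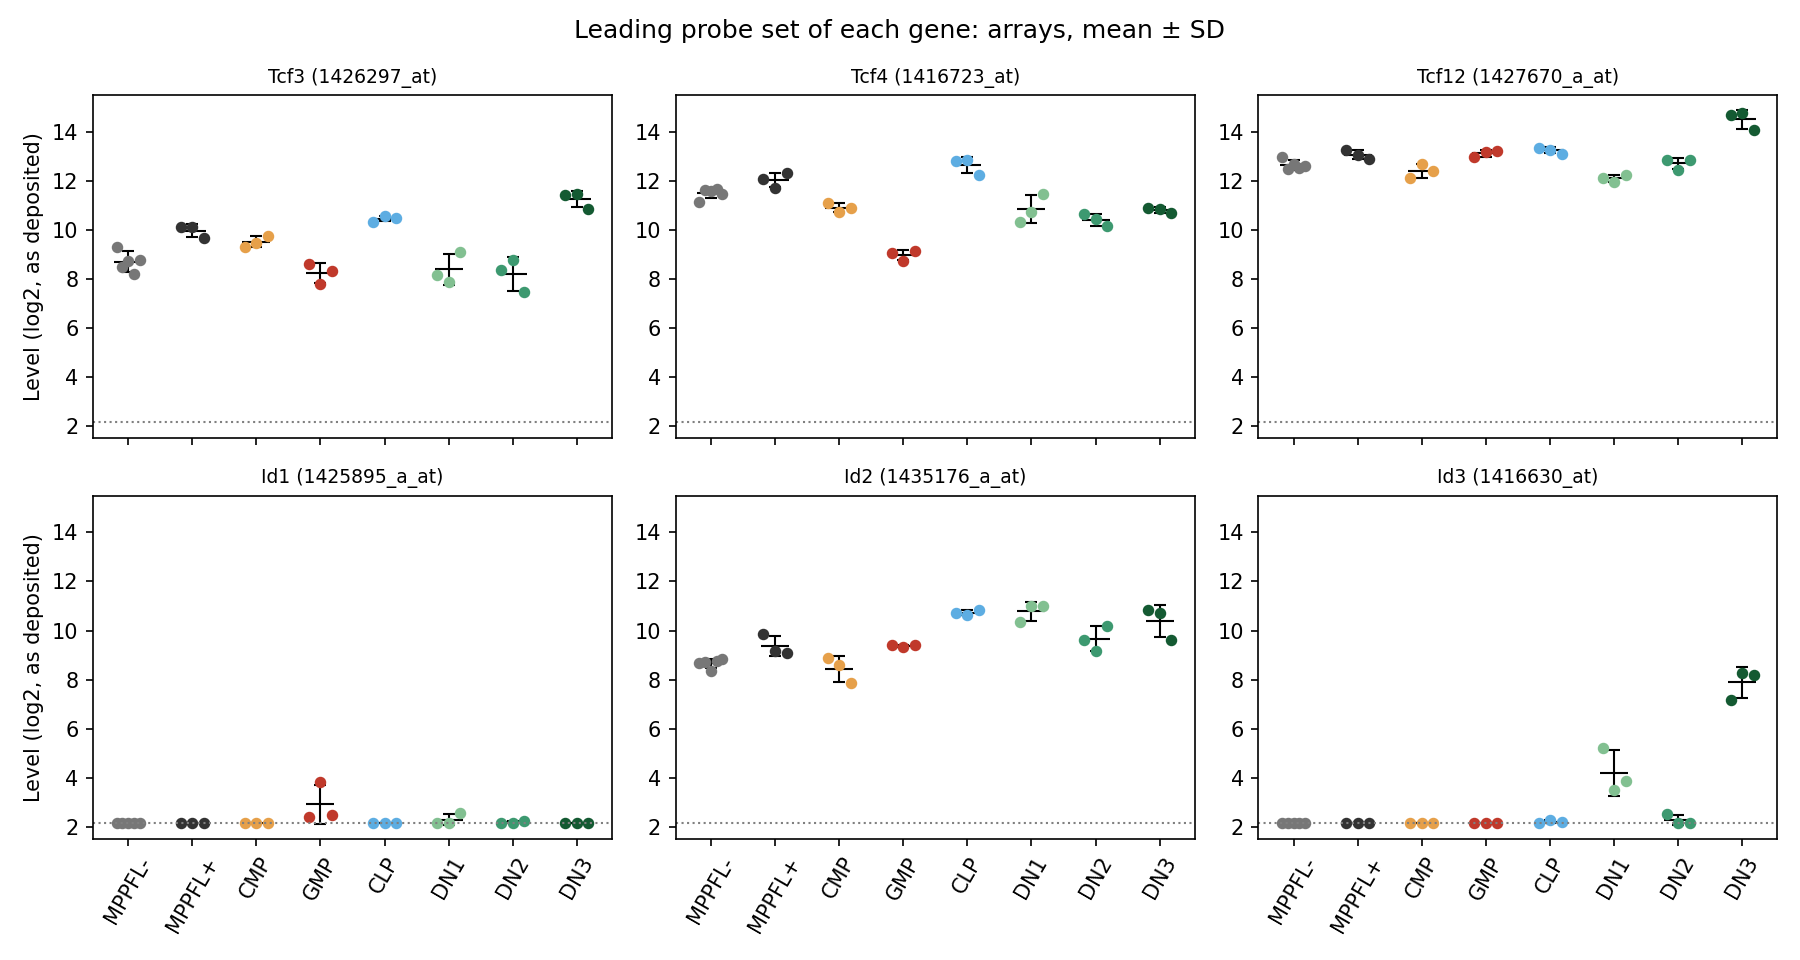
Level (log2, as deposited) of the leading probe set of each of the 6 genes in the 8 populations, with 1 point per array and the mean ± SD as a bar, and the floor of 2.17 as a dotted line. Tcf3, Tcf12 and Id3 peak in DN3, Tcf4 is lowest in GMP, and Id1 stays near the floor.

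At the marrow branch points, Tcf3 was higher in MPPFL+, Tcf4 was lower in GMP and, on part of its probe sets, in CMP, and Id2 was higher in CLP. In MPPFL+ against MPPFL-, 4 of the 19 probe sets passed the test (limma on all arrays, Benjamini-Hochberg adjusted p under 0.05), 3 higher and 1 lower, against 15% of all probe sets (7.56% higher and 7.44% lower), so the share of the 19 was near the background. In CMP against MPPFL+, 5 passed, 1 higher and 4 lower, against 16% (4.9% higher and 11.1% lower). In that comparison the median log2 change of the 22582 probe sets that were not dim was -0.19, and the calls over all probe sets were 30.6% higher. After quantile normalization the calls were 46.6% higher, and 6 of the 19 passed. In GMP against CMP, 9 passed, 2 higher and 7 lower, against 16.2% (9.86% higher and 6.29% lower). In CLP against MPPFL+, only Id2 1435176_a_at passed, against 4.11% (1.73% higher and 2.39% lower), so the share of the 19 was near the background. That call was lost under 4 of the alternatives.

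At the entry to the thymus, the Tcf3 probe sets and part of those of Tcf4 fell and Id3 rose. At the step into DN3, the Tcf3 probe sets and part of those of Tcf12 rose together with Id3. In DN1 against CLP, 11 of the 19 passed, 2 higher and 9 lower, against 23.1% of all probe sets (10.2% higher and 13% lower). All 9 that fell were E protein probe sets, among them Tcf4 1416725_at, which lay within 1 log2 unit of the floor on all arrays. In DN2 against DN1, 5 passed, 2 higher and 3 lower, against 5.48% (2.74% in each direction). Of the 2 that rose, Id2 1453596_at lay near the floor. In DN3 against DN2, 8 passed, 7 higher and 1 lower, against 23.9% (12.6% higher and 11.3% lower). Of the 7 that rose, 6 were E protein probe sets, and the 1 that fell was Id2 1453596_at, near the floor. In CLP against GMP, 12 passed, 10 higher and 2 lower, against 20.8% (11.3% higher and 9.42% lower). The 2 that were lower were Tcf12 1446294_at and Id1 1425895_a_at, the latter at the floor in CLP. The median log2 change of the 19 was -0.36 in DN1 against CLP, 0.65 in DN3 against DN2 and 0.59 in CLP against GMP, where the median of all probe sets was 0. Without the 4 arrays against the male label, with 1 array each in DN1 and DN2, 9 passed in DN1 against CLP, 1 in DN2 against DN1 and 7 in DN3 against DN2. With the spike-in cluster as a random block, 1 passed in DN1 against CLP (Tcf3 1427764_a_at), 5 in DN3 against DN2 and 5 in CLP against GMP. Neighbouring comparisons share a population, so their calls are not independent of each other, and probe sets of 1 gene are not separate genes.

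**Figure D2:**
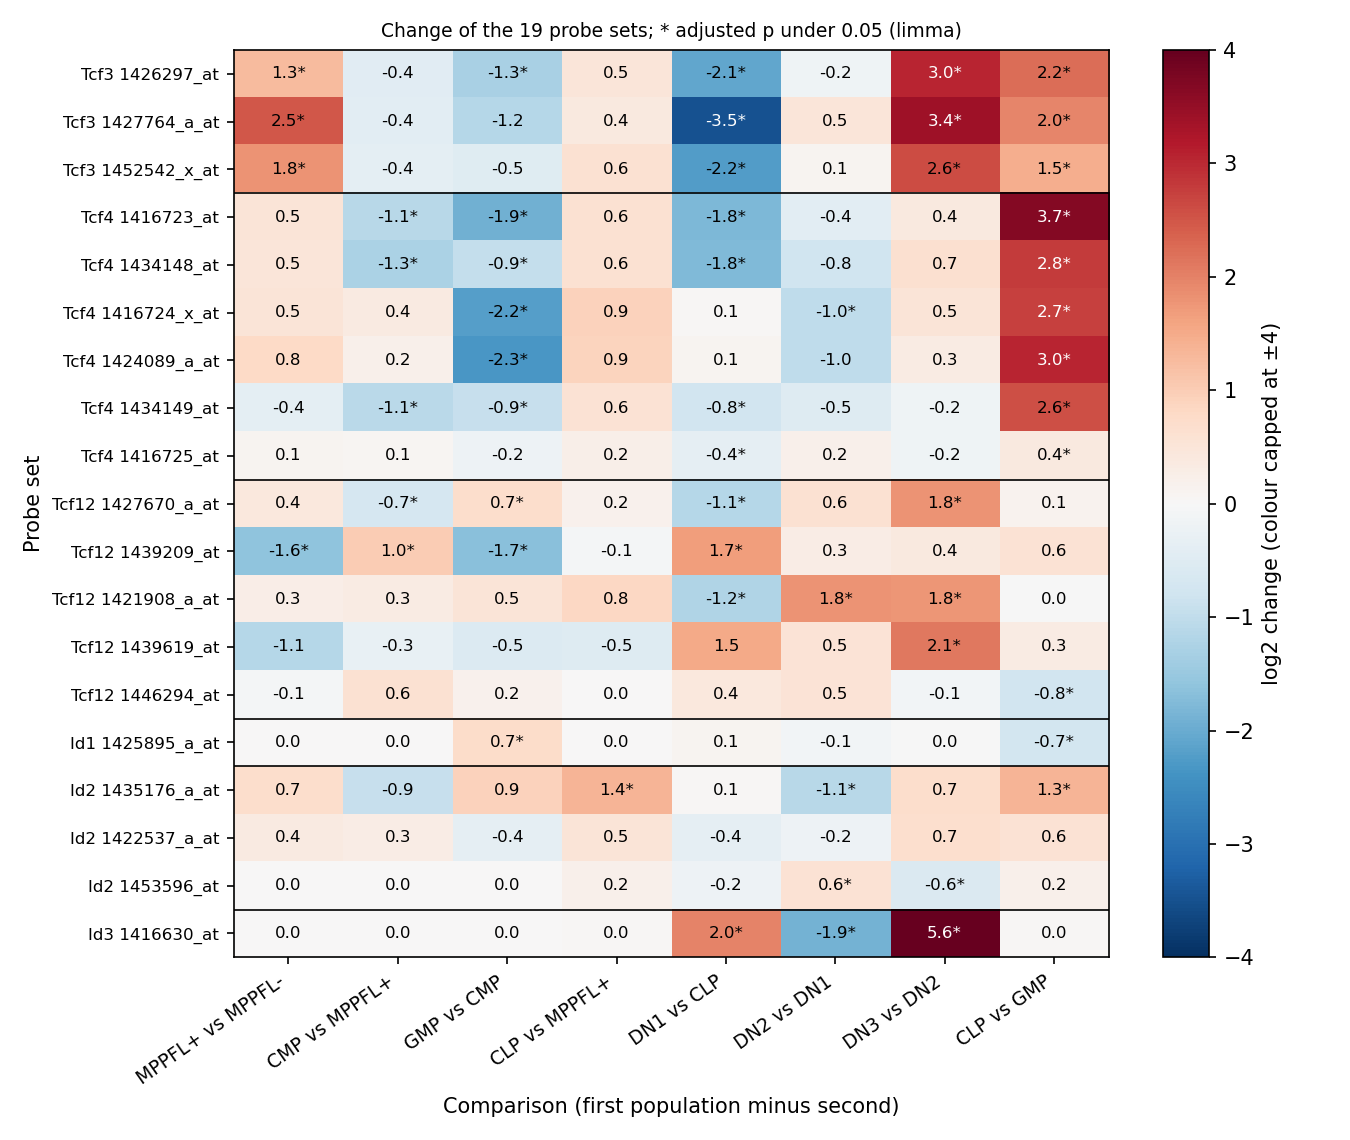
log2 change of each of the 19 probe sets (rows) in the 8 comparisons (columns, first population minus second), with an asterisk where the adjusted p is under 0.05 and the colour capped at 4. Most E protein probe sets are lower in DN1 than in CLP, all 3 of Tcf3 are higher in DN3 than in DN2, and all 6 of Tcf4 are higher in CLP than in GMP.

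Tcf3, which encodes the E12 and E47 proteins needed for B and T lineage specification, rose in MPPFL+ over MPPFL-, fell in DN1 against CLP and rose again in DN3, with the same direction for all 3 of its probe sets. The leading probe set, 1426297_at, read 10.11, 10.13 and 9.65 in MPPFL+, against 9.32, 8.49, 8.71, 8.18 and 8.79 in MPPFL-. The groups did not overlap, and the log2 change was 1.27 (SE 0.31, adjusted p = 0.00726). The second probe set, 1427764_a_at, read 8.35, 8.29 and 7.69 in MPPFL+, against 6.31, 5.71, 5.11, 5.13 and 5.87 in MPPFL-, a log2 change of 2.48 (SE 0.39, adjusted p = 1.61e-04). The third, 1452542_x_at, read 4.64, 4.80 and 3.60 in MPPFL+ and lay within 1 log2 unit of the floor on all MPPFL- arrays, so it was at least 3.51-fold higher in MPPFL+ (adjusted p = 1.70e-04). The call for 1426297_at was lost when the replicate number was added to the fit (adjusted p = 0.0658), and those for the other two probe sets were kept in every alternative run.

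Along the myeloid branch Tcf3 was lower in GMP than in CMP on all 3 probe sets, but only 1426297_at passed the test. 1426297_at read 8.61, 7.78 and 8.32 in GMP, against 9.32, 9.48 and 9.77 in CMP, a log2 change of -1.29 (SE 0.34, adjusted p = 0.0133). The adjusted p was 0.0738 without GMP replicate 2, 0.0798 with only the 2 populations fitted and 0.427 with the spike-in cluster as a random block. 1427764_a_at read 6.70, 6.47 and 6.44 in GMP and 6.89, 8.08 and 8.08 in CMP, where the first CMP array lay near the GMP values. That change did not pass the test, nor did that of 1452542_x_at, with means of 3.48 in GMP and 3.96 in CMP. Against GMP, the CLP arrays read 10.34, 10.56 and 10.49 on 1426297_at, a log2 change of 2.23 (SE 0.34, adjusted p = 6.49e-05), and the 3 probe sets were 4.68-fold, 3.87-fold and 2.76-fold higher in CLP. All 3 calls were lost with the spike-in cluster as a random block (adjusted p = 0.111, 0.374 and 0.343).

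In the thymus, Tcf3 was low in DN1 and DN2 and high in DN3. 1426297_at read 8.17, 7.89 and 9.10 in DN1, below every CLP array, with a log2 change of -2.07 (SE 0.34, adjusted p = 1.54e-04). 1427764_a_at also fell, with 5.47, 3.70 and 5.88 in DN1 against 8.76, 8.34 and 8.36 in CLP, a log2 change of -3.47 (SE 0.44, adjusted p = 8.17e-06). DN3 was higher than DN2 on both. 1426297_at read 11.43, 11.45 and 10.87 in DN3, against 8.38, 8.78 and 7.46 in DN2, with a log2 change of 3.04 (SE 0.34, adjusted p = 1.52e-06), an 8.23-fold difference. 1427764_a_at read 9.18, 8.72 and 8.80 in DN3, against 5.40, 5.66 and 5.42 in DN2, a log2 change of 3.41 (SE 0.44, adjusted p = 7.01e-06). Neither probe set overlapped between DN3 and DN2. Without the 4 arrays against the male label, the changes of these probe sets were -2.57 and -4.79 in DN1 against CLP, and 2.86 and 3.50 in DN3 against DN2, from 1 array each of DN1 and DN2. In the order of the means of 1426297_at, DN3 stood above CLP and CLP above MPPFL+ with no overlap, and from MPPFL+ down to DN2 each population overlapped the next.

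Tcf12, which encodes the E protein HEB that pairs with the Tcf3 products in thymocytes, was also highest in DN3. Its leading probe set, 1427670_a_at, read 14.68, 14.78 and 14.06 in DN3, against 12.84, 12.45 and 12.83 in DN2. The log2 change was 1.80 (SE 0.18, adjusted p = 3.09e-07), and the lowest DN3 array was above every array of the other 7 populations. 1421908_a_at moved with it, with 10.53, 10.78 and 10.19 in DN3, against 8.41, 8.82 and 9.01 in DN2, a log2 change of 1.75 (SE 0.34, adjusted p = 5.99e-04, and 0.0912 with the spike-in cluster as a random block). 1439619_at also rose in DN3, by 2.11 (SE 0.69, adjusted p = 0.0309), a call lost under 8 of the alternatives, and against the single DN2 array that did not go against the male label the change was 0.90. 1439209_at read 11.09, 11.17 and 11.25 in DN3 and 10.92, 10.45 and 10.93 in DN2, and did not pass the test.

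Before DN3 the Tcf12 probe sets moved in opposite directions. In DN1 against CLP, 1427670_a_at fell, with 12.10, 11.96 and 12.25 in DN1 against 13.35, 13.27 and 13.11 in CLP (log2 change -1.14, SE 0.18, adjusted p = 9.32e-05). 1439209_at rose in the same samples, with 10.33, 10.72 and 10.34 in DN1 against 8.43, 9.29 and 8.66 in CLP (log2 change 1.67, SE 0.32, adjusted p = 6.68e-04). Neither overlapped. From DN1 replicate 2 alone, the array that did not go against the male label, the changes were -1.28 and 1.93. With the spike-in cluster as a random block neither passed (adjusted p = 0.0876 and 0.197).

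In the marrow these 2 probe sets also changed in opposite directions, with calls that depended on the fit. In GMP against CMP, 1427670_a_at read 12.96, 13.16 and 13.23 in GMP and 12.11, 12.69 and 12.41 in CMP, and rose by 0.71 (SE 0.18, adjusted p = 0.00889). 1439209_at read 7.92, 8.21 and 8.50 in GMP and 10.73, 9.50 and 9.44 in CMP, and fell by 1.68 (SE 0.32, adjusted p = 0.00103). Both calls were lost with only the 2 populations fitted (adjusted p = 0.118 and 0.128) and with the spike-in cluster as a random block (adjusted p = 0.455 and 0.130), and that of 1427670_a_at also without CMP replicate 1 (adjusted p = 0.0553). In MPPFL+ against MPPFL-, 1439209_at read 8.79, 8.23 and 9.60 in MPPFL+, against 10.47, 10.52, 10.62, 10.41 and 10.33 in MPPFL-, and fell by 1.60 (SE 0.29, adjusted p = 6.22e-04), while 1427670_a_at changed by 0.41 and did not pass. In CMP against MPPFL+, 1427670_a_at fell by 0.67 (SE 0.18, adjusted p = 0.0136) and 1439209_at rose by 1.02 with overlapping arrays (SE 0.32, adjusted p = 0.0363), calls lost under 4 and 6 of the alternatives, for 1439209_at also with the replicate block (adjusted p = 0.0759). The difference between the probe sets was not itself tested. Over the 8 population means, the Pearson correlation of 1427670_a_at was 0.85 with 1421908_a_at and 0.08 with 1439209_at, and that of 1439209_at with 1439619_at was 0.87. The fifth, 1446294_at, stayed between 5.50 and 6.77 on all arrays. It passed as lower in CLP than in GMP (log2 change -0.76, adjusted p = 0.0174), a call lost under 3 of the alternatives.

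**Figure D3:**
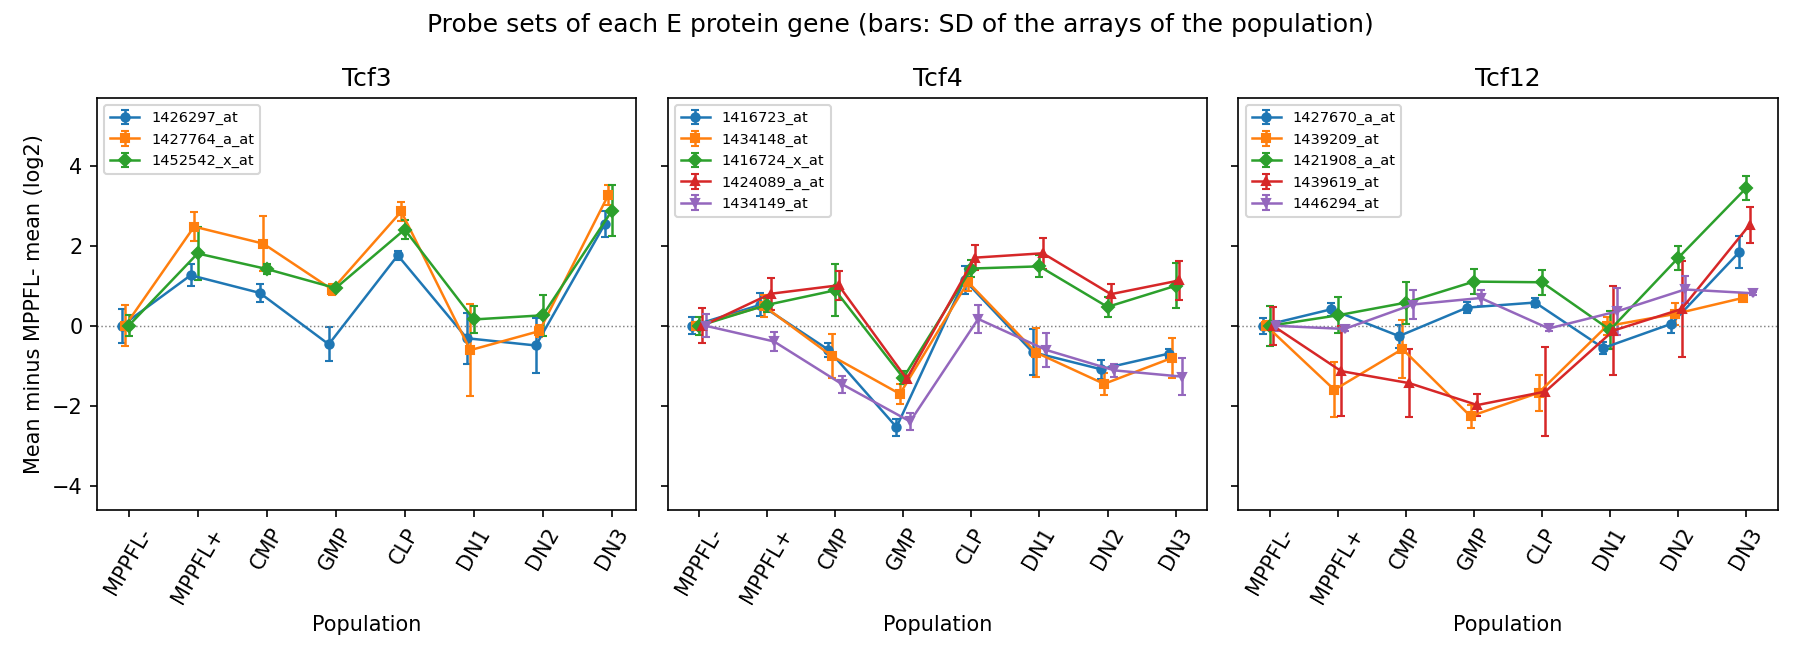
Mean level of each probe set of Tcf3, Tcf4 and Tcf12 in the 8 populations, minus its own mean in MPPFL- (log2), with the SD of the arrays as bars and 1 marker per probe set; Tcf4 1416725_at, near the floor on all arrays, is left out. The Tcf3 probe sets run together, the Tcf4 probe sets differ in CMP and the DN stages, and the Tcf12 probe sets part in MPPFL+, GMP and CLP.

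Tcf4, which encodes E2-2, the E protein that specifies plasmacytoid dendritic cells, was high in CLP and low in GMP. Its leading probe set, 1416723_at, read 12.82, 12.87 and 12.26 in CLP, against 9.06, 8.73 and 9.12 in GMP, a 12.8-fold difference (log2 change 3.68, SE 0.24, adjusted p = 5.61e-10). All 6 Tcf4 probe sets passed in this comparison, although 1416725_at lay within 1 log2 unit of the floor on all arrays, where a change has no measured size, and lost its call with the spike-in cluster as a random block (adjusted p = 0.391). The other five ranged in log2 change between 2.57 and 3.68. The decline along the myeloid branch came in 2 steps on 1416723_at. It read 11.08, 10.73 and 10.91 in CMP, against 12.06, 11.73 and 12.30 in MPPFL+, and fell by 1.12 (SE 0.24, adjusted p = 0.0023). GMP then fell by 1.94 against CMP (SE 0.24, adjusted p = 8.03e-06), a step in which 5 of the 6 probe sets fell. 1434148_at and 1434149_at ran with 1416723_at, at correlations of 0.95 and 0.91 over the 8 population means. Their log2 changes were -1.25 and -1.07 in CMP against MPPFL+ and -0.95 and -0.93 in GMP against CMP, and all 4 passed the test. No probe set of the 19 passed in CMP against MPPFL+ with the spike-in cluster as a random block or with only these 2 populations fitted. In GMP against CMP, the calls of 1416723_at and 1424089_a_at were kept in every alternative run. That of 1416724_x_at was lost under 1 alternative, that of 1434149_at under 4 and that of 1434148_at under 6, among them the replicate block (adjusted p = 0.0672) and the fit without CMP replicate 1 (adjusted p = 0.173).

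A pair of Tcf4 probe sets, 1424089_a_at and 1416724_x_at, showed another pattern. They correlated at 0.995 with each other and at 0.66 and 0.67 with 1416723_at over the 8 population means. On 1424089_a_at the CMP arrays read 10.60, 9.89 and 10.10 and the MPPFL+ arrays 10.00, 9.57 and 10.37, and the groups overlapped. The GMP arrays were lower, at 7.80, 7.94 and 7.81 (log2 change against CMP -2.34, SE 0.30, adjusted p = 1.40e-05). In DN1 against CLP, 1416723_at read 10.34, 10.72 and 11.48 in DN1 and fell by 1.80 (SE 0.24, adjusted p = 1.32e-05), whereas 1424089_a_at read 10.83, 10.72 and 11.43 in DN1 and 11.18, 10.92 and 10.55 in CLP, with overlapping arrays. The log2 change of 1416723_at from DN1 replicate 2 alone was -1.93, and with all arrays the call was lost with only the 2 populations fitted (adjusted p = 0.0544) and with the spike-in cluster as a random block (adjusted p = 0.0622). In DN1 against CLP, 1434148_at and 1434149_at changed by -1.76 and -0.78, calls lost under 2 and 7 of the alternatives. Tcf4 stayed well above the floor in the thymus, with 10.65, 10.44 and 10.17 in DN2 and 10.90, 10.85 and 10.67 in DN3 on 1416723_at. In the order of the means of this probe set, CLP and MPPFL+ overlapped each other and stood above MPPFL-, and GMP stood below all other populations with no overlap.

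The mean of 6 measured plasmacytoid dendritic cell markers was, like Tcf4 1416723_at, highest in CLP, at 7.43 (7.15 to 7.62). It was 5.77 in MPPFL+ (5.53 to 5.96) and 5.50 in GMP (5.45 to 5.54). Among the other populations it was 4.24 in MPPFL-, 5.66 in CMP, 5.34 in DN1, 4.66 in DN2 and 6.13 in DN3. Below CLP its order differed from that of Tcf4, which read 11.50 in MPPFL- and 10.8 in DN3 on 1416723_at. In CLP against GMP, 4 of the 6 rose and none fell, against 15.9% of all genes higher and 11.1% lower. Siglech, a defining marker of these cells, was at 5.26 in CLP (4.30 to 5.81) and at the floor on all arrays of the other 7 populations. The part of these cells in the CLP level of Tcf4 was not tested.

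Id2, the inhibitor required for innate lymphoid cells, was read well above the floor by 1 of its 3 probe sets, 1435176_a_at. It read 10.70, 10.64 and 10.85 in CLP, against 9.85, 9.18 and 9.10 in MPPFL+, and rose by 1.35 (SE 0.32, adjusted p = 0.0145), without overlap. The call was lost when MPPFL+ replicate 2, MPPFL+ replicate 3 or CLP replicate 3 was left out and when only the 2 populations were fitted, and the adjusted p over all alternatives ran between 0.00277 and 0.121. Against GMP, which read 9.39, 9.34 and 9.41, CLP was 2.55-fold higher (log2 change 1.35, SE 0.32, adjusted p = 0.00354), a call lost with the spike-in cluster as a random block (adjusted p = 0.296). Tcf3 and Tcf4 were above their GMP levels in the same CLP arrays. In the order of the means of Id2, each population from DN1, CLP and DN3 down to MPPFL+ overlapped the next, and MPPFL- and CMP lay below MPPFL+ with no overlap.

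Id2 in DN1 was 10.35, 11.00 and 11.01, overlapping CLP, so the inhibitor did not pass the test at the step where Tcf3 fell. In DN2 it read 9.64, 9.18 and 10.20 and fell by 1.11 against DN1 (SE 0.32, adjusted p = 0.0438), a call lost under 7 of the alternatives. Between DN1 replicate 2 and DN2 replicate 1 alone, the log2 change of Id2 was -1.365. In DN3 it read 10.82, 10.72 and 9.63, and the change against DN2 passed only when DN3 replicate 3 or DN2 replicate 3 was left out (1.10 without DN3 replicate 3, adjusted p = 0.0108). The mean of 12 natural killer and innate lymphoid markers was 5.10 in DN1 (4.74 to 5.31) against 4.25 in CLP (4.20 to 4.29), with 5 of 12 higher in DN1 and none lower, against 7.79% of all genes higher and 18.3% lower, and Klrk1 and Ncr1 at the floor on all DN1 arrays. It was 5.13 in DN2 (5.09 to 5.17), and the part of such cells in the Id2 levels was not tested. Of the other Id2 probe sets, 1422537_a_at lay within 1 log2 unit of the floor on 23 of the 26 arrays, and 1453596_at was at the floor on 21.

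Id3, the inhibitor induced by antigen receptor signals, was at the floor on all MPPFL-, MPPFL+, CMP and GMP arrays and appeared in DN1 and DN3. 1416630_at read 7.16, 8.29 and 8.21 in DN3, against 2.52, 2.17 and 2.17 in DN2. DN3 was at least 48.5-fold higher (log2 change at least 5.60, SE 0.30, adjusted p = 5.40e-11), and the adjusted p stayed between 9.74e-13 and 0.00383 over the alternatives. It was at least 5.37 against DN2 replicate 1 alone and at least 5.44 without DN3 replicate 3. DN1 read 5.23, 3.48 and 3.85, against 2.17, 2.28 and 2.18 in CLP, and was at least 3.94-fold higher (adjusted p = 7.32e-05). DN2 was at least 3.74-fold lower than DN1 with all arrays (adjusted p = 5.24e-04, and 0.335 with only the 2 populations fitted). That bound did not hold between DN1 replicate 2 and DN2 replicate 1 alone, where the log2 change was -0.96.

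The DN1 result for Id3 rested partly on arrays that went against their label. Without them, DN1 was represented by replicate 2 alone, at 3.48, a log2 difference of at least 1.27 against CLP with no replicate of DN1 to test it. With all arrays, the adjusted p for DN1 against CLP was 0.123 with the spike-in cluster as a random block and 0.0910 with only the 2 populations fitted. The immediate early and stress genes moved the same way, with 8 of 13 higher in DN1 than in CLP and none lower, against 7.79% of all genes higher and 18.3% lower. In DN2 against DN1, 4 of 13 were lower and none higher, against 3.79% lower and 3.57% higher. Egr1, an immediate early gene whose product induces Id3, read 11.17, 13.35 and 12.94 in DN1, against 8.76, 8.79 and 7.89 in CLP. The DN1 array with the highest Id3, replicate 1, had the lowest Egr1 of the 3. The part of the immediate early genes in the DN1 level of Id3 was not tested. In DN3, where Id3 was highest, Egr1 read 9.13, 9.66 and 9.29, against 9.44, 9.16 and 12.44 in DN2, and did not pass the test.

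Id1 was at the floor on 21 of the 26 arrays. Its probe set, 1425895_a_at, read 2.41, 3.83 and 2.49 in GMP and 2.17 on all 3 CMP arrays. The difference passed the test (adjusted p = 0.0266) but has no measured size against the floor, and the call was lost under 5 of the alternatives. Among the 26 arrays, only GMP replicate 2 lay more than 1 log2 unit above the floor.

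Of 18 listed targets of E proteins, 8 rose, none fell and 10 did not pass the test in DN3 against DN2, against 16.1% of all genes higher and 13.7% lower, with a median log2 change of 0.84 (0 for all genes). Ptcra, which encodes the pre-T cell receptor alpha chain, read 12.81 in DN3 (12.32 to 13.25) against 2.94 in DN2 (2.66 to 3.44), where it lay near the floor (adjusted p = 2.81e-16). Cd3e, a chain of the T cell receptor complex, changed by 6.09 (SE 0.23), and Rag1, a subunit of the V(D)J recombinase, by 5.74 (SE 0.43), with 15.00 in DN3 against 9.26 in DN2. Without the arrays against the male label, with DN2 replicate 1 alone, 6 of the 18 rose and none fell, and without DN3 replicate 3, 9 rose and none fell.

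Members of the list also passed the test at the other steps. The list shares Il7r, Rag1 and Dntt with the CLP markers that checked the labels, and Ptcra and Cd3e with the thymocyte markers. The rises of these genes in CLP and DN3 are therefore not independent of the label check. In CLP against GMP, 11 of the 18 rose and none fell, against 15.9% of all genes higher and 11.1% lower, with a median of 2.87. In MPPFL+ against MPPFL-, 6 rose and none fell, against 10.4% of all genes higher and 5.13% lower, led by Dntt, the template-independent polymerase of V(D)J joining, at 13.08 in MPPFL+ against 7.85 in MPPFL-. In CLP against MPPFL+, where no E protein probe set passed, 8 of the 18 rose and none fell, against 2.31% higher and 3.66% lower. Il7r, the interleukin 7 receptor, read 13.23 in CLP against 4.81 in MPPFL+, Rag1 10.29 against 4.74, and Ebf1, a B lineage factor, 6.54 against the floor. In CMP against MPPFL+, 7 fell and none rose, against 17.2% lower and 4.82% higher, and in GMP against CMP, 5 fell and none rose, against 7.23% lower and 12.9% higher.

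At the entry to the thymus, 8 of the 18 targets fell in DN1 against CLP, 1 rose and 9 did not pass, against 18.3% lower and 7.79% higher. Ebf1 read 2.18 in DN1 against 6.54 in CLP, Rag1 7.03 against 10.29, and Vpreb1, part of the surrogate light chain of B lineage cells, 5.57 against 8.76. Socs3, an inhibitor of cytokine signalling, was the target that rose (log2 change 2.74, SE 0.63). In DN2 against DN1, 4 rose and none fell, against 3.57% higher and 3.79% lower, among them Rag1 by 2.23 and Rag2 by 2.00, while no Tcf3 probe set passed in that step and 1421908_a_at was the only Tcf12 probe set to rise. With the arrays against the male label left out, and so 1 array each in DN1 and DN2, the count in DN1 against CLP was 5 lower and 1 higher, and in DN2 against DN1 it was 2 higher and none lower.

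**Figure D4:**
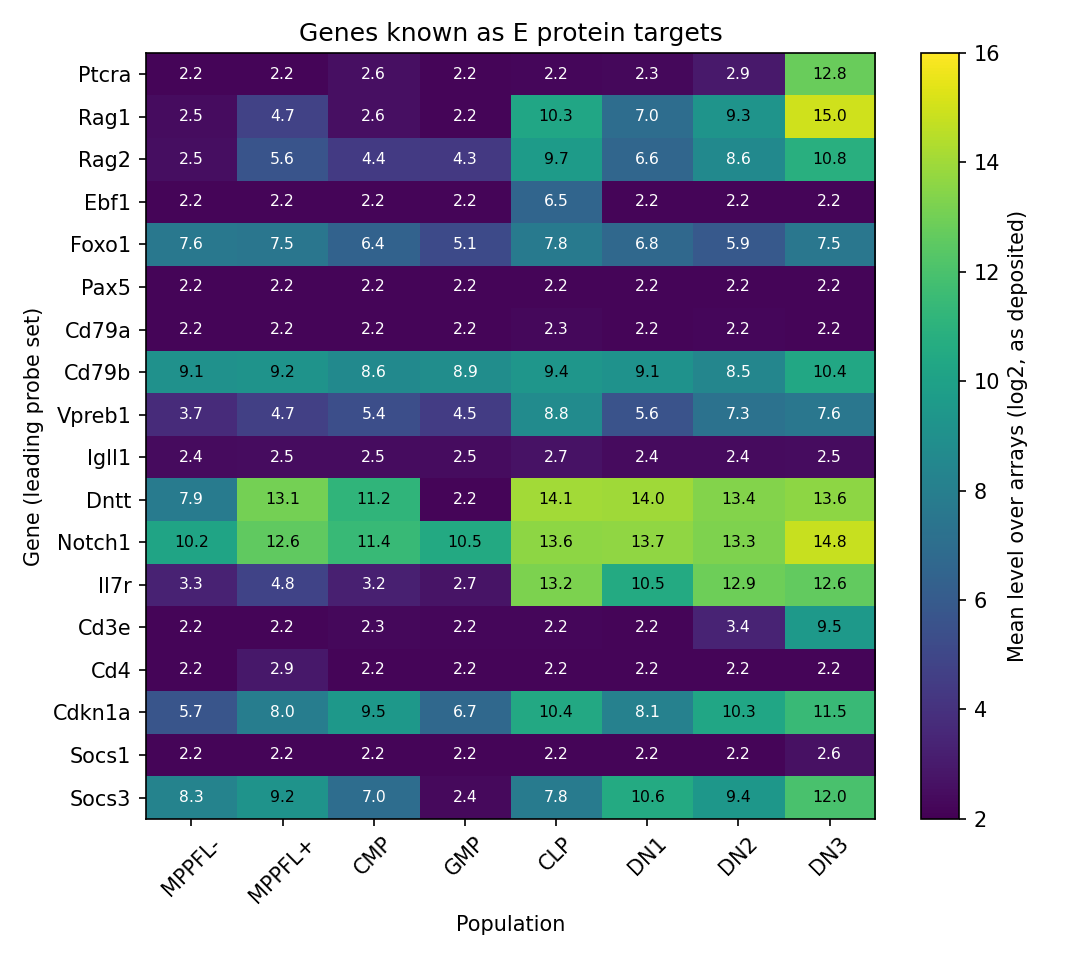
Mean level (log2, as deposited) of the leading probe set of the 18 listed E protein target genes (rows) in the 8 populations (columns), with the value printed in each cell. Ptcra and Cd3e stand high in DN3 alone, Dntt and Il7r are low in GMP and high in CLP, and Ebf1 is above the floor in CLP.

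Genes of pathways that regulate Id transcription were followed as a list of 14. The list was made up of Egr factors and of receptors and Smad proteins of the BMP and TGF-beta pathways. Its members Smad6 and Smad7 inhibit these pathways, so the list mixes inducers and inhibitors. In DN1 against CLP, 5 rose and 2 fell, against 7.79% of all genes higher and 18.3% lower, led by Egr3 (8.11 in DN1 against 2.17 in CLP), Egr2 (7.94 against 2.35) and Egr1 (12.49 against 8.48). In DN2 against DN1, 6 fell and none rose, against 3.79% lower, with Egr3 at 3.94 in DN2 and the BMP receptor Acvr1 at 5.13 in DN2 against 6.86 in DN1. In DN3 against DN2, where Id3 rose most, 3 rose and 4 fell, against 16.1% higher and 13.7% lower, and no Egr gene passed. In CMP against MPPFL+, 8 of 14 fell and none rose, against 17.2% lower. Among them was the inhibitory Smad6, at 2.98 in CMP against 6.19 in MPPFL+. In CLP against GMP, 7 rose and none fell, against 15.9% higher. Of the Id genes, Id2 rose in that comparison and Id3 was at or near the floor in both populations. Id1, at the floor in CLP, passed as lower in CLP than in GMP (adjusted p = 0.021), a call lost under 5 of the alternatives.

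The genes whose leading probe sets were most like each member over the 8 population means, among 9096 genes searched, were named by Pearson correlation as a description. For Tcf3 they were Gak (0.985), Tsc22d4 (0.980) and Rnf31 (0.977). For Tcf4 they were Sesn1 (0.978), Tesk1 (0.977) and Lcor (0.966), and for Tcf12 they were Ttpal (0.973), Adck1 (0.965) and Zfp398 (0.964). For Id2 the values were lower, with Filip1l at 0.946, Mad2l1bp at 0.931 and Cd6 at 0.924. For Id3 they were Cacna2d4 (0.994), Unc5cl (0.983) and Camk4 (0.982). Each correlation rests on 8 points drawn from the same 26 arrays, and the highest of many correlations over so few points is high by selection.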

How the data were processed

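RNA of 26 samples had been hybridised on Affymetrix arrays after Trizol extraction and biotin labelling, per the labels' protocols. The values used were log2 levels from the deposited series table. The background correction, normalization and summarization by which the authors made them are not given in the sources used here, and the depth of an array is not defined, so the number of arrays limits the precision. Of 45101 probe sets, 64 controls of the array maker were left out, and 45037 were tested. In the platform annotation 34945 of these carried 1 gene symbol, 932 carried several and 9160 carried no symbol, so 18193 genes were represented. All 19 member probe sets had a gene ID in the RefSeq table (GRCm38.p6), which also gave coordinates and promoters.

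All 45037 probe sets were fitted with population as the only term over the 26 arrays (limma 3.58.1 in R 4.3.3, lmFit and eBayes, two-sided), and p-values were adjusted over all of them by Benjamini and Hochberg, with calls under 0.05. Every adjusted p printed comes from this fit, or from an alternative listed below where the text names one. The test was checked on simulated data with DN3 against DN2 as the model, where 25% of changes of 1 log2 unit, 75% of changes of 2 and 100% of changes of 4 were recovered among 45037 probe sets, with 6 false calls. The simulated noise was independent between arrays and had no floor and no spike-in cluster effect. The false calls therefore do not measure the error that the floor or the clusters may bring. All probe sets of the 6 genes are described whatever their test. Each listed gene is represented by its leading probe set, whose mean across the arrays is the highest for that gene, and of each list up to 3 called genes per comparison with the largest change are named, with Socs3, Rag2, Acvr1, Smad6 and Egr1 singled out after their values were seen. Lists were described by counts and medians without a set test. The members and lists were chosen with earlier results of these data known. Alternatives were quantile normalization, a filter on dim probe sets, 1 probe set per gene, intensity-trended robust moderation, only the 2 populations compared, a replicate block, spike-in clusters as a random block (consensus correlation 0.563), and each array left out. Leaving out the 4 arrays whose Xist level went against the male label was added after seeing the data.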

Additional observations from a re-analysis of the deposited data

Results flagged for a closer look

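Outliers could be tested only in MPPFL-, the population with 5 arrays, where 16 probe sets had a spread to test and 2 were flagged, and chance flags about 1 in 20. Id2 1422537_a_at read 2.245 on MPPFL- replicate 1, above the other 4 arrays. Tcf4 1416725_at read 2.242 on MPPFL- replicate 5, below the other 4. Both lie within 1 log2 unit of the floor of 2.17, and no comparison of the report rests on them.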

How the results depend on the processing

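Of the 19 probe sets, the number called in a comparison moved by more than 1.5 times under 6 alternatives besides the leaving out of single arrays, and no change that passed the test turned its direction under any alternative. With 1 probe set per gene, 6 were tested and the counts were 1 in MPPFL+ against MPPFL-, 3 in CMP against MPPFL+, 5 in GMP against CMP, 4 in DN1 against CLP, 3 in DN2 against DN1, 3 in DN3 against DN2, 4 in CLP against GMP and 5 among all populations, where fewer members exist by construction. Fitted to only the 2 populations compared, with fewer arrays, the counts were 0 in CMP against MPPFL+, 3 in GMP against CMP, 0 in CLP against MPPFL+, 6 in DN1 against CLP and 0 in DN2 against DN1. With the spike-in cluster as a random block they were 0 in CMP against MPPFL+ and 3 in GMP against CMP. They were 2 in CLP against MPPFL+, 1 in DN1 against CLP, 5 in DN3 against DN2 and 5 in CLP against GMP. Except in CLP against MPPFL+, the 2 populations of these comparisons shared no spike-in cluster, so population and cluster cannot be told apart there. Over all probe sets that block gave 1501 calls in DN1 against CLP and 3323 in DN3 against DN2, against 10416 and 10763 without it. The filter on dim probe sets gave 2 in CLP against MPPFL+. Without the arrays against the male label DN2 against DN1 gave 1, with 1 array in each population. Leaving out 1 array at a time gave 4 to 6 calls in MPPFL+ against MPPFL-, 3 to 6 in CMP against MPPFL+, 7 to 10 in GMP against CMP, 0 to 1 in CLP against MPPFL+, 9 to 11 in DN1 against CLP, 2 to 4 in DN2 against DN1, 6 to 11 in DN3 against DN2, 10 to 12 in CLP against GMP and 16 to 17 among all populations. Quantile normalization moved the median change of 22582 probe sets that were not dim by 0.19 in CMP against MPPFL+, and the share of higher calls was 46.6% with it and 30.6% without it. The replicate numbers showed no general pairing of the samples. The deviations of 84 same-numbered pairs correlated at a median of -0.002 (-0.63 to 0.47), and those of 210 differently numbered pairs at 0.0007 (-0.43 to 0.56). A pairing in only some of the populations was not tested. With the replicate block, DN2 against DN1 gave 3 calls, 8 of 152 changes lost their call and none gained one. The trended fit changed none of the 152.

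Id1, Id3 outside the thymus, and Tcf3 1452542_x_at in MPPFL-, DN1 and DN2 lay near the floor, where differences have no measured size. All p-values rest on 3 to 5 arrays per population.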

Other observations

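Some partners and cofactors of the E proteins also changed at the step into DN3. Tal1 and Lyl1, which encode helix-loop-helix factors that pair with E proteins in stem and progenitor cells, read 2.60 and 2.66 in DN3 against 8.30 and 10.46 in DN2 (limma, adjusted p = 1.92e-14 and 2.17e-13). Of 13 measured partners, these 2 fell and Hes1, a target of Notch signals, rose by 2.27 (SE 0.32), against 13.7% of all genes lower and 16.1% higher. Lmo2, the bridging cofactor of Tal1 and E protein complexes, read 7.57 in DN2 against 11.65 in DN1 and 2.72 in DN3 against 7.57 in DN2. Of 10 cofactors, 3 rose and 3 fell in DN3 against DN2. Without the arrays against the male label, with DN2 replicate 1 alone, 2 rose and 3 fell. Hes1 was also higher in DN1 than in CLP, at 10.25 in DN1 against 4.62 in CLP (SE of the log2 change 0.32, adjusted p = 4.64e-10).

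In CMP against MPPFL+, 6 of the 10 cofactors fell and 2 rose, against 17.2% of all genes lower and 4.82% higher. Lmo1 rose in that comparison, at 7.94 in CMP against 6.34 in MPPFL+, and Kat2b, a histone acetyltransferase, fell by 1.08. These counts share the scaling of CMP described with the processing.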
